A study of Mus musculus with 7 samples.

Results

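The levels of 10 mouse genes that encode nucleolar factors of ribosome assembly were compared between wild-type and Glis3 mutant fetal testes. The genes, taken by symbol from a table of 24739 genes, were Polr1b, Nop56, Nop58, Fbl, Dkc1, Pes1, Bop1, Wdr12, Ncl and Npm1, and each was listed once with its values. Bop1 was chosen by its FPKM in these 7 libraries, which were a little lower, and very evenly so, in the mutant ones. Its difference between the genotypes is therefore a description and was given no test. In the mutant testes Polr1b, Wdr12 and Fbl were lower than in every wild-type testis, with means 27.0% to 32.5% lower. Ncl was too, by a gap of 0.675% of its lowest wild-type value, whereas Nop58 was at nearly the same level in both genotypes. None of the 9 factors other than Bop1 passed the threshold after adjustment over all genes when all 7 libraries were used.

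RNA-Seq was done on whole testes at E14.5, with the single pair of testes of 1 embryo per library, so the replicates are separate embryos. The study set the genotypes against each other to ask how GLIS3, a zinc finger transcription factor of fetal male germ cells, acts. Its results section places E14.5 ahead of the loss of germ cells, whereas its discussion dates the earliest detected loss to this same stage. There were 3 wild-type libraries and 4 from embryos homozygous for Glis3 zf5, an allele that lacks exon 4 with some of the intron sequence on both sides and whose protein is disrupted in DNA binding. Both groups were on a C57BL/6 background, and the mutation is carried by every cell of the embryo, not by germ cells alone. Ribosomal RNA was depleted, so RNA with and without a tail was read, and the protocol does not keep the strand of a transcript. Values are given as FPKM, fragments scaled to the length of the transcript and to the depth of the library, a scale that allows levels of different genes to be set side by side.

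The targeted gene, Glis3, was listed at 7.63, 6.89 and 2.91 FPKM in wild-type replicates 1 to 3 and at 3.86, 3.26, 2.90 and 2.66 FPKM in mutant replicates 1 to 4. The library labelled wild-type replicate 3 thus lay within the mutant range. FPKM cover exons outside the deletion too, so Glis3 is only a partial check of the labels, and the values that depend on this library most are given with and without it. Of 12 germ cell genes, 11 were lower in it than in the other wild-type libraries, with Dppa5a the exception, and 8 were no higher than the highest mutant library. Ddx4, a germ cell RNA helicase, was at 102, 94.7 and 53.1 FPKM in wild-type replicates 1 to 3 and at 33.6 to 42.2 FPKM in the mutant ones, and the Sertoli cell gene Amh and the Leydig cell gene Cyp11a1 were at 99.8 FPKM or more and 434 FPKM or more in every library. FPKM do not tell how many fragments stand behind a value. Steps between low values gave depths of 0.775 to 1 relative to wild-type replicate 1.

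A ribosome is built in the nucleolus. RNA polymerase I copies the ribosomal DNA into a long precursor RNA, small nucleolar RNAs (snoRNAs) guide proteins that modify it, and a large set of assembly factors cuts and folds it into the small and the large subunit. Growing and dividing cells, such as those of the fetal testis, make many ribosomes. Polr1b is a core subunit of RNA polymerase I. Nop56, Nop58 and Fbl form the protein core of box C/D snoRNPs, whose methyltransferase is fibrillarin, the product of Fbl, and Dkc1 encodes dyskerin, the pseudouridine synthase of box H/ACA snoRNPs. Pes1, Bop1 and Wdr12 make up the PeBoW complex, which is needed to process the RNA of the large subunit, and Ncl and Npm1 encode nucleolin and nucleophosmin, abundant nucleolar proteins.

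Promoter sequence is shown for Polr1b, which had the largest difference between the genotypes, for Nop58, which had the smallest, and for Ncl. The log2 fold change of Ncl was below 0 in FPKM and above 0 in repeat reads, and neither passed the adjusted threshold. The 250 bases before the start site were taken from a set of promoter windows of RefSeq genes (GRCm38.p6). The set at hand held an entry for 7 of the 10 genes and none for Bop1, Fbl and Npm1. Capitals mark matches to a GC box (GGGCGG) or to a CGCG element (TCTCGCGA) on either strand. The windows lie at chr2:129100746-129100995 (+) for Polr1b, chr1:59684756-59685005 (+) for Nop58 and chr1:86359456-86359705 (-) for Ncl.
Polr1b: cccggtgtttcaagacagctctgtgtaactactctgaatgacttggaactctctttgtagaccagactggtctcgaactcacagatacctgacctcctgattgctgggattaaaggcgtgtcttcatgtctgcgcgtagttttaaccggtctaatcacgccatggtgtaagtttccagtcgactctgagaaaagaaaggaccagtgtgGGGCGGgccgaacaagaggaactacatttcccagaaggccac
Nop58: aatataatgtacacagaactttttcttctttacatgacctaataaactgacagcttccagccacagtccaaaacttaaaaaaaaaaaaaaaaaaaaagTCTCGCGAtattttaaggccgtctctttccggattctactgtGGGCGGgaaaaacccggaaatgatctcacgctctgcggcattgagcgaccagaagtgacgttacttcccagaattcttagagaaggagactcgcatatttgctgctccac
Ncl: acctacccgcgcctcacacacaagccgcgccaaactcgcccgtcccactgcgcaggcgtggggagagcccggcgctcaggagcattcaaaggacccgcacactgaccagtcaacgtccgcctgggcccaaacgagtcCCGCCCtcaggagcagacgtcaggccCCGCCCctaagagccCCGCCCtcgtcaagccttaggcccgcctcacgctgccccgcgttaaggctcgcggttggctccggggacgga
Polr1b held 1 GC box, Nop58 held 1 GC box and 1 CGCG element, and Ncl held 3 GC boxes. The window of Ncl was 69.6% G or C with 27 CG dinucleotides, that of Polr1b 49.6% with 10 and that of Nop58 41.2% with 11, beside medians of 52.4% and 6 over all 32851 windows.

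A search for 7 short motifs covered 250 bases before to 50 after each start, on both strands, and none of the strings contains another. The GC box, the site of SP family factors, was in 5 of the 7 members with an entry (Ncl, Nop56, Nop58, Polr1b and Wdr12), in 68.2% of 10462 genes tested for expression and in 35.7% of all windows. The E-box CACGTG, the site of MYC family factors, was in Pes1 alone among the members, in 18.6% of 118 other ribosome biogenesis genes, in 11.6% of the genes tested and in 7.15% of all windows. The CGCG element was in Nop58 alone, in 5.08% of the other biogenesis genes, in 2.37% of the genes tested and in 0.995% of windows. None of these 7 members held the GLIS core TGGGGGGT (1.53% of windows), the ETS motif CCGGAAG (8.86%), the NRF1 motif GCGCATGC (2.71%) or the YY1 motif AAGATGGC (2.75%). Bop1, Fbl and Npm1 were not searched. At such shares 7 genes are too few to read anything from an absence. The ETS string was in 45.8% of the other biogenesis genes and in 19.1% of the genes tested.

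Several host genes of snoRNAs are among the factors. The table had rows for 6 snoRNAs that lie inside Nop56, Nop58 or Ncl, and each of them was listed at 0 FPKM in all 7 libraries. The sequences of 3 of them (GENCODE M21) show the elements that the proteins of Nop56, Nop58 and Fbl bind, with a C box TGATGA and a D box CTGA in capitals. Snord110 lies in Nop56, Snord11 in Nop58 and Snord82 in Ncl.
Snord110: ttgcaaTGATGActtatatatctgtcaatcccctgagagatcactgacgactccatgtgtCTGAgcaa
Snord11: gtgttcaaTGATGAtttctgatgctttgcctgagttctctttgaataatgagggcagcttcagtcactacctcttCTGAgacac
Snord82: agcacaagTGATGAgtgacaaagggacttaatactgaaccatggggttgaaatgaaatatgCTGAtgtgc
Levels of snoRNAs could thus not be set beside those of the genes that host them or of the proteins that bind them.

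In wild-type testes the 10 genes spanned a wide range of levels. Npm1 was highest, followed by Nop58 and Nop56, and the wild-type ranges of these 3 genes did not overlap each other or that of the next gene. Pes1, Dkc1, Bop1, Ncl and Polr1b followed with means of 25.2 to 30.8 FPKM, and each overlapped its neighbour in this order. Wdr12, at 18.8 ± 2.47 FPKM, met Polr1b at 21.0 FPKM, and Fbl, at 7.85 ± 0.349 FPKM (SD, n = 3), was lowest. The plot of FPKM by library shows all values.

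**Figure D1:**
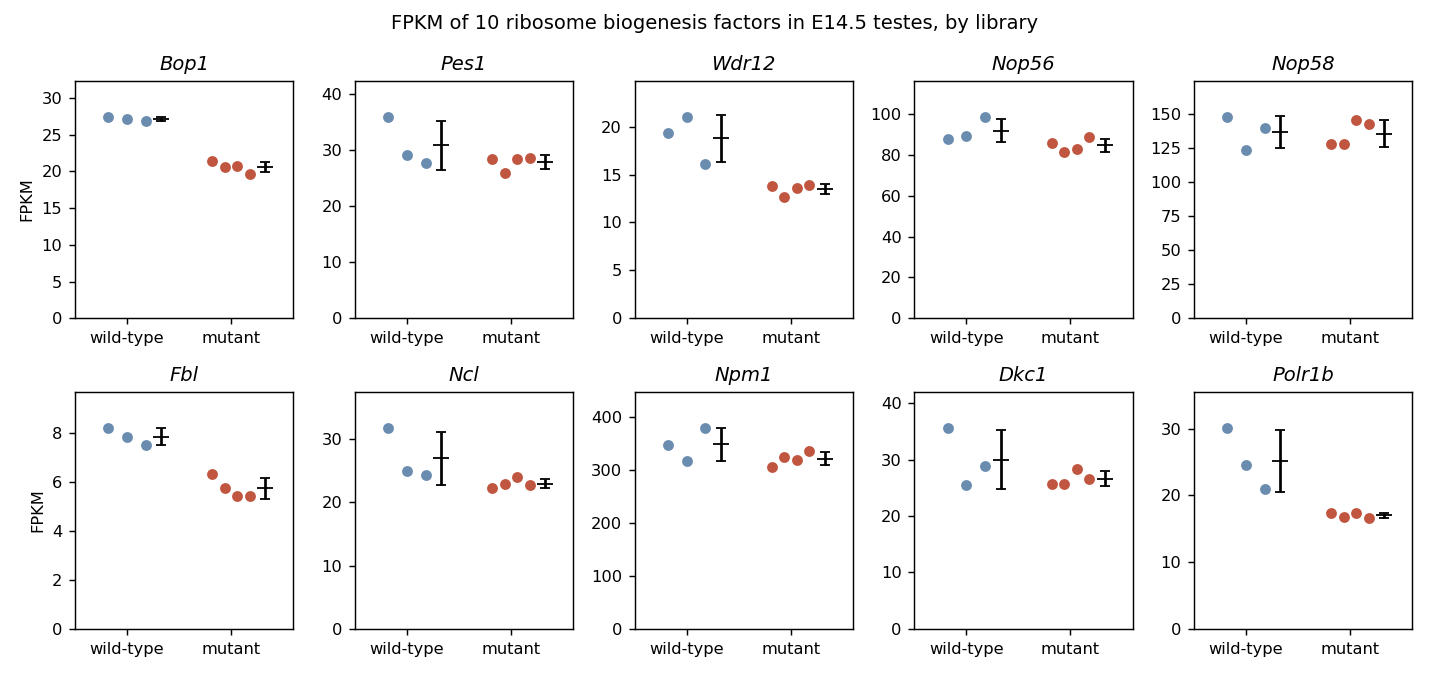
FPKM (vertical axis, from 0) of the 10 ribosome biogenesis factors in each library, with wild-type replicates 1 to 3 in blue and mutant replicates 1 to 4 in red, in that order from left to right. Bars give the mean and SD of each group. Bop1, Wdr12, Fbl and Polr1b show mutant points that lie below all wild-type points, as does Ncl by a narrow gap.

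Polr1b, the subunit of RNA polymerase I (chr2:129100996-129126595, +), was at 30.1, 24.5 and 21.0 FPKM in wild-type replicates 1 to 3 and at 17.4, 16.7, 17.3 and 16.6 FPKM in mutant replicates 1 to 4. All mutant libraries were below all wild-type libraries, and the wild-type libraries were far more spread than the mutant ones. The means were 25.2 ± 4.63 FPKM (SD, n = 3) and 17.0 ± 0.417 FPKM (SD, n = 4), 32.5% lower in the mutant. The log2 fold change, here and below mutant over wild-type on the scale of log2(FPKM + 0.5), was -0.54 with a standard error of 0.11. It did not pass the threshold of 0.05 in limma over 13988 genes (unadjusted p = 0.00104, adjusted p = 0.154, range over the alternatives 0.0107 to 0.357). Without the library labelled wild-type replicate 3 the log2 fold change was -0.66 and the limma adjusted p was 0.0107. In whole tissue, fewer cells that express a gene and less RNA per cell cannot be told apart.

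The other subunits of the polymerase were less different. Polr1a, which encodes the largest subunit, was at 27.1 ± 3.24 FPKM in wild-type and 22.1 ± 0.574 FPKM in mutant testes (log2 fold change -0.28, limma adjusted p = 0.188), and Polr1c, shared with RNA polymerase III, at 177 ± 11.1 and 152 ± 7.75 FPKM (-0.22, limma adjusted p = 0.204). In both genes the groups did not overlap. Polr1e had a log2 fold change of -0.37 and groups that overlapped (limma adjusted p = 0.263), and Polr1d, the other subunit shared with RNA polymerase III, was at 111 ± 11.8 and 116 ± 11.5 FPKM (0.06, limma adjusted p = 0.788). Twistnb, Znrd1 and Cd3eap, which encode further subunits, had log2 fold changes of -0.02, -0.02 and 0.01. Their groups overlapped (limma adjusted p = 0.911, 0.930 and 0.969).

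Among the box C/D snoRNP proteins, Fbl differed between the genotypes more than Nop56 and Nop58 did. Fbl (chr7:28169748-28179269, +) was at 8.21, 7.83 and 7.52 FPKM in wild-type and at 6.34, 5.77, 5.42 and 5.41 FPKM in mutant libraries. The highest mutant library was 15.6% below the lowest wild-type library. The log2 fold change was -0.42 with a standard error of 0.08, a mean 27.0% lower, and did not pass the threshold (limma, unadjusted p = 0.000764, adjusted p = 0.139, range over the alternatives 0.0403 to 0.353). The lowest of these values, 0.0403, was reached without the library labelled wild-type replicate 3, with a log2 fold change of -0.45.

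Nop56 (chr2:130274412-130279313, +) was at 87.9, 89.2 and 98.5 FPKM in wild-type and at 85.7, 81.6, 82.8 and 88.7 FPKM in mutant libraries. Mutant replicate 4 lay above wild-type replicate 1, so the groups overlapped, and the log2 fold change of -0.12 (standard error 0.06) had a limma adjusted p of 0.386. Once the library labelled wild-type replicate 3 was left out, it came to -0.06. Nop58 (chr1:59685006-59711510, +) was at 148, 124 and 140 FPKM in wild-type and at 128, 128, 146 and 143 FPKM in mutant libraries. Its groups covered almost the same range. The log2 fold change was -0.01 with a standard error of 0.08 (limma adjusted p = 0.971), and its sign changed when values were centred on the median of all genes. Nop56 and Fbl encode partners in one particle, and the log2 levels of the 2 genes had a Pearson r of 0.58 over the 7 libraries, whereas the r of Nop58 with Fbl was -0.10 and with Nop56 0.16. Nhp2l1, which encodes the remaining core protein of the particle, had a log2 fold change of -0.04 (limma adjusted p = 0.803).

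Dkc1 (chrX:75095854-75109776, +), the pseudouridine synthase, was at 35.6, 25.5 and 28.8 FPKM in wild-type and at 25.7, 25.6, 28.4 and 26.6 FPKM in mutant libraries. Wild-type replicate 1 was high and wild-type replicate 2 was below every mutant library. The log2 fold change was -0.16 with a standard error of 0.11 (limma adjusted p = 0.482), and -0.03 without wild-type replicate 1. Of the other H/ACA core proteins, Nhp2 had a log2 fold change of -0.25 (limma adjusted p = 0.288), Gar1 of -0.01 (0.987) and Nop10 of 0.07 (0.800), all with groups that overlapped. The ends of Dkc1 and Nop56 overlap Mpp1 and Idh3b on the opposite strand, and reads there cannot be told apart.

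In the PeBoW complex Bop1 and Wdr12 were lower in all mutant libraries and Pes1 was not. Bop1 (chr15:76452996-76477269, -) was at 27.4, 27.2 and 26.9 FPKM in wild-type and at 21.4, 20.6, 20.8 and 19.7 FPKM in mutant libraries. The coefficient of variation was 0.963% among the wild-type and 3.32% among the mutant libraries, an evenness for which the gene was chosen. The means were 27.1 ± 0.261 FPKM (SD, n = 3) and 20.6 ± 0.684 FPKM (SD, n = 4), a difference of 24.1% and a log2 fold change of -0.39, and the highest mutant value was 20.5% below the lowest wild-type value. Scx lies wholly inside Bop1 on the opposite strand and Mroh1 overlaps its end, and without strand the reads of these genes cannot be told apart there. Scx was at 13.6 ± 3.22 FPKM in wild-type and 16.5 ± 1.48 FPKM in mutant testes.

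Wdr12 (chr1:60076868-60098500, -) was at 19.4, 21.0 and 16.1 FPKM in wild-type and at 13.8, 12.7, 13.6 and 13.9 FPKM in mutant libraries. The groups did not overlap, and the wild-type library nearest to the mutant ones was the one labelled replicate 3. The mean was 28.3% lower in the mutant, with a log2 fold change of -0.46 and a standard error of 0.09 that did not pass the threshold (limma, unadjusted p = 0.00095, adjusted p = 0.153, range over the alternatives 0.00985 to 0.357). Without the library labelled wild-type replicate 3 the log2 fold change was -0.56 and the limma adjusted p was 0.00985. The start of Wdr12 overlaps Carf on the opposite strand, which was at 5.59 ± 0.474 and 5.53 ± 0.215 FPKM. Pes1 (chr11:3963975-3980004, +) was at 35.8, 29.0 and 27.7 FPKM in wild-type and at 28.4, 25.8, 28.3 and 28.5 FPKM in mutant libraries. Only wild-type replicates 1 and 2 were above all mutant libraries, so the groups overlapped (log2 fold change -0.14, standard error 0.09, limma adjusted p = 0.469). Without wild-type replicate 1 the log2 fold change of Pes1 was -0.03.

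The genes of nucleolin and nucleophosmin had smaller differences. Ncl (chr1:86344719-86359455, -) was at 31.7, 24.9 and 24.2 FPKM in wild-type and at 22.3, 22.8, 24.0 and 22.7 FPKM in mutant libraries. The groups did not overlap, but by a gap of 0.675% of the lowest wild-type value, and the log2 fold change of -0.22 (standard error 0.10) had a limma unadjusted p of 0.0525 and an adjusted p of 0.300, and was -0.09 without wild-type replicate 1. Npm1 (chr11:33152498-33163206, -) was at 347, 317 and 379 FPKM in wild-type and at 306, 324, 319 and 335 FPKM in mutant libraries. The groups overlapped, and the log2 fold change was -0.11 with a standard error of 0.08 (limma adjusted p = 0.490), and -0.05 without the library labelled wild-type replicate 3. Npm1 has processed pseudogenes and the alignment kept reads with up to 10 places, so its level is uncertain.

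All 10 factors passed the filter of a mean of 0.5 FPKM. Beside Bop1, all 9 others had a mean lower in the mutant, although the sign of Nop58 was not stable, and 0 of 9 passed the adjusted threshold in limma, at a background of 0.00715% of all 13988 genes tested. At an unadjusted p under 0.05 in limma, 3 of 9 were lower (Polr1b, Wdr12 and Fbl), where 8.79% of all genes were. In 4 of 9 (44.4%) all mutant libraries were below all wild-type libraries, where 7.59% of all genes were. The genes were proposed with results of these libraries known, so these shares are no independent evidence of a direction. Without the library labelled wild-type replicate 3, 3 of 9 passed the adjusted threshold, where 5.15% of all genes did, and 3.99% of all genes did so with a lower level in the mutant.

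The rest of the pathway was read from a list of 140 other ribosome biogenesis genes, all of which passed the filter. Of these, 126 (90.0%) had a log2 fold change below 0, beside 47.9% of all genes tested, and the median was -0.21 beside 0.01 over all genes. In limma 0 of 140 passed the adjusted threshold, and at an unadjusted p under 0.05 there were 71 lower and 0 higher, where 8.79% of all genes were lower and 8.21% higher. In 59 (42.1%) all mutant libraries were below all wild-type libraries and in 0 above, where 7.59% of all genes were below and 7.31% above. Without the library labelled wild-type replicate 3, 37 of 140 passed the adjusted threshold, each of them lower in the mutant, where 3.99% of all genes were past it and lower, and the number below all wild-type libraries was 87, at a background of 17.1%. The differences were small for most genes, as the plot of fold changes shows.

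By role, the factors of the large subunit had 49 of 52 genes with a log2 fold change below 0 and those of the small subunit 49 of 56, both with a median of -0.22. Polymerase I genes other than Polr1b had 14 of 16 below 0 with a median of -0.16, snoRNP genes 8 of 10 with -0.13, and other nucleolar genes 6 of 6 with -0.25. Groups that did not overlap, lower in the mutant, were found in 25 of the large subunit and 29 of the small subunit genes, and in 2, 1 and 2 genes of the last 3 lists. For polymerase I and snoRNP genes these are 12.5% and 10%, near the 7.59% of all genes.

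**Figure D2:**
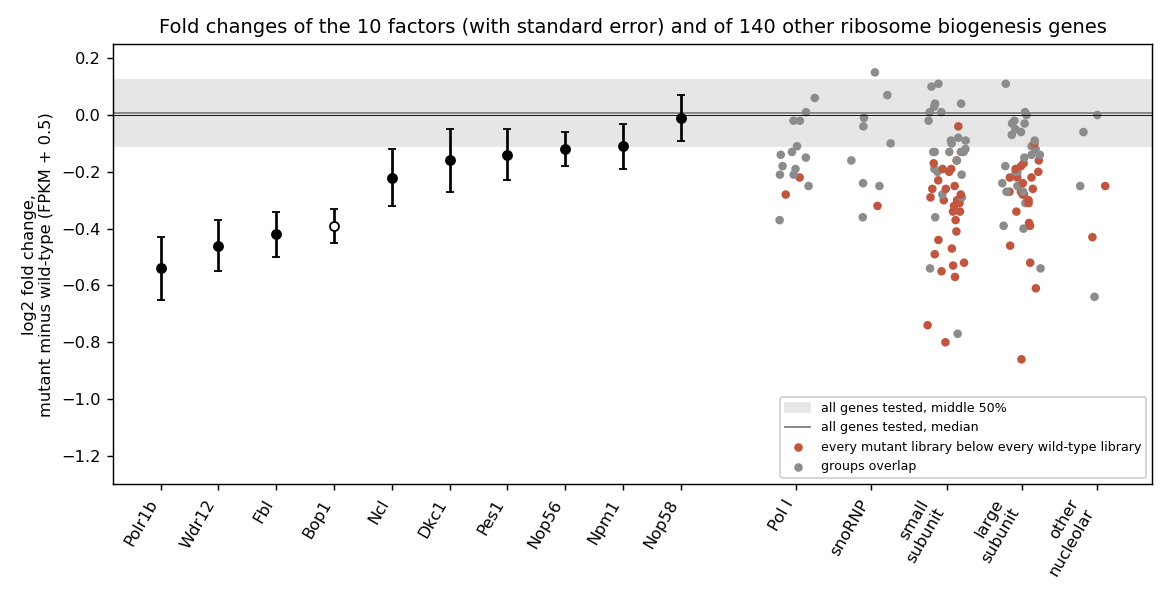
Log2 fold change, mutant over wild-type on log2(FPKM + 0.5), of the 10 factors (black, bars give 1 standard error, Bop1 open because it was chosen for this difference) and of 140 other ribosome biogenesis genes by role (1 point per gene, red where every mutant library was below every wild-type library). The grey band holds the middle 50% of all genes tested. All 10 factors, with Nop58 at -0.01, and 126 of the 140 other genes have values below 0.

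Among the small subunit factors whose groups did not overlap, the lowest fold changes were those of Heatr1, Cirh1a and Dhx37. Heatr1, a large protein of the early precursor particle, was at 49.2, 72.7 and 31.2 FPKM in wild-type and at 30.0, 25.8, 27.1 and 27.1 FPKM in mutant libraries. The library labelled wild-type replicate 3 was just above the mutant range there, and the log2 fold change was -0.80 (limma adjusted p = 0.186). Cirh1a, which encodes cirhin of the same particle, was at 52.6, 58.5 and 40.2 FPKM in wild-type and at 27.2 to 31.1 FPKM in mutant libraries (log2 fold change -0.74, limma adjusted p = 0.112), and the helicase gene Dhx37 had a log2 fold change of -0.57 (limma adjusted p = 0.186). The highest fold changes of this kind were those of Nop9 (-0.17), Utp15 (-0.16) and Krr1 (-0.04). Krr1 was at 21.1 to 21.5 FPKM in wild-type and 20.3 to 20.9 FPKM in mutant libraries, so a lack of overlap can go with a difference of 3.08%.

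Among the large subunit factors whose groups did not overlap, the lowest fold changes were those of Mdn1, Tex10 and Gtpbp4. Mdn1, a large ATPase that strips assembly factors from the maturing subunit, was at 47.3, 43.6 and 23.0 FPKM in wild-type and at 21.7, 20.2, 19.7 and 17.8 FPKM in mutant libraries. Again the library labelled wild-type replicate 3 was close to the mutant ones, and the log2 fold change was -0.86 (limma adjusted p = 0.174), or -1.18 without it (limma adjusted p = 0.00388). Tex10 was at 72.8, 62.9 and 45.8 FPKM in wild-type and at 36.9 to 39.6 FPKM in mutant libraries (log2 fold change -0.61, limma adjusted p = 0.168), and the GTPase gene Gtpbp4 had a log2 fold change of -0.52 (limma adjusted p = 0.168). The highest fold changes without overlap were those of Rsl24d1 (-0.17), Ddx56 (-0.16) and Mak16 (-0.10). Without that library Polr1a, Heatr1, Cirh1a, Dhx37, Tex10 and Gtpbp4 also passed the threshold, with limma adjusted p from 0.00529 to 0.0377.

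The mean log2 level of the 9 factors other than Bop1, set against its wild-type mean, was 0.128, -0.064 and -0.064 in wild-type and -0.240, -0.283, -0.217 and -0.224 in mutant libraries. For the 140 other genes it was 0.095, 0.010 and -0.104 in wild-type and between -0.264 and -0.205 in mutant libraries. The mutant libraries lay together and below all wild-type libraries in both lists. The 12 germ cell genes were at 0.504, 0.433 and -0.937 in wild-type and between -1.220 and -0.673 in mutant libraries, so the library labelled wild-type replicate 3 was within the mutant range for germ cell genes and above it for the factors. The germ cell list holds Ddx4, Nanos2, Nanos3, Mael, Tdrd1 and Piwil2, which the study reported as reduced in these mutant testes. It leaves out Boll, Hormad1 and Lefty2, reported there as unchanged, so its direction is no independent evidence. All 12 germ cell genes had a log2 fold change below 0 (median -1.01). Groups did not overlap in 3 of them (25%, beside 7.59% of all genes). Their summed level was 878 to 1770 FPKM in wild-type and 711 to 825 FPKM in mutant libraries. All 6 fetal Leydig cell genes were above 0 (median 0.47, summed 1650 to 2720 and 2580 to 3150 FPKM), as were 8 of 10 Sertoli cell genes (median 0.14, summed 1160 to 1380 and 1420 to 1570 FPKM), 6 of 6 macrophage genes (median 0.21, summed 24.7 to 29.0 and 28.2 to 37.0 FPKM) and 6 of 6 muscle genes (median 0.54, summed 59.5 to 87.7 and 75 to 126 FPKM). The part of any of these cell types in the result was not tested.

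**Figure D3:**
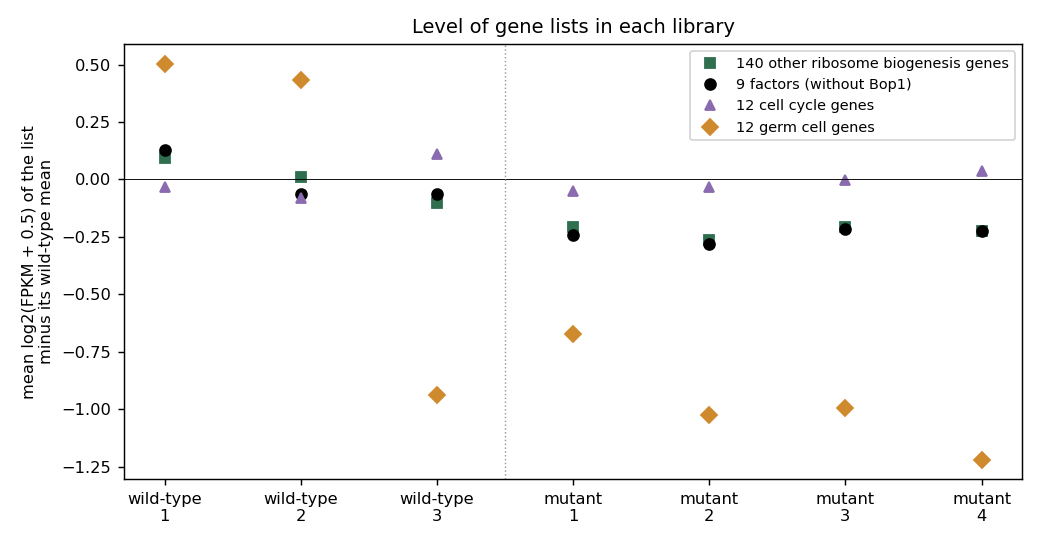
Mean of log2(FPKM + 0.5) over the genes of a list, minus its mean in wild-type libraries (vertical axis, log2 units), in each library for the 9 factors other than Bop1, 140 other ribosome biogenesis genes, 12 cell cycle genes and 12 germ cell genes. The 4 mutant libraries lie between -0.283 and -0.205 for both ribosome lists, and the germ cell genes of the library labelled wild-type replicate 3 lie at -0.937.

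Genes of cell division and of rRNA itself were also read. Of 12 cell cycle genes 7 had a log2 fold change below 0, the median was -0.02 and the level against its wild-type mean was between -0.079 and 0.111 in all 7 libraries. The transcription factor genes Myc, at 1.23 ± 0.228 and 1.35 ± 0.396 FPKM, and Mycn, at 18.3 ± 3.44 and 18.1 ± 0.528 FPKM, had log2 fold changes of 0.09 and 0.00 (limma adjusted p = 0.840 and 0.991). Max, which encodes the partner of MYC proteins and was named after its values were seen, was at 12.8 ± 0.695 and 10.3 ± 0.312 FPKM with groups that did not overlap (log2 fold change -0.30, limma adjusted p = 0.168). It was the only 1 of 7 listed regulators without overlap (14.3%, beside 7.59% of all genes). Mycl, Mlx, Mnt and Mxd4 had log2 fold changes of -0.18, -0.02, 0.17 and 0.21 with groups that overlapped. Rn45s, the precursor of ribosomal RNA, was at 3360, 3600 and 3810 FPKM in wild-type and at 3420, 3060, 4930 and 4250 FPKM in mutant libraries. The groups overlapped (log2 fold change 0.10, limma adjusted p = 0.805), and since the libraries were depleted of ribosomal RNA the value is what depletion left.

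The genes most like Bop1 were sought among the 7239 genes that reached a mean of 10 FPKM, by Pearson correlation of log2 levels over the 7 libraries. They were Blcap (r = 0.993), Ppp2r1b (0.990), Appbp2 (0.978), Iqcb1 (0.975) and Chtf8 (0.974), and 23 genes had an r over 0.95. Blcap was at 17.7 to 18 FPKM in wild-type and 15.5 to 15.9 FPKM in mutant libraries, 12% lower, and Ppp2r1b was at 24.5 to 26.7 and 18.2 to 20 FPKM, 25.7% lower. Among the members, Fbl was most like Bop1 (r = 0.97), followed by Wdr12 and Polr1b (0.90 each), and Pes1 had an r of 0.54. The libraries of both genotypes enter each of these values, so a shared step between the genotypes counts toward r. Bop1 was chosen for its even step, so the lower mutant levels of genes found this way follow from the search.

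The deposited counts of reads in repeat elements gave a further reading of the same genes, from uniquely mapped reads of the same 7 libraries. This reading is not independent of the FPKM, since reads in elements that touch an exon can enter both. Counts were summed over the elements that lie wholly inside a gene, which for 5 of the 10 factors (Nop56, Nop58, Fbl, Npm1 and Bop1) came mostly from elements that touch no exon. They are given as CPM (counts scaled to the sum of these counts over the genes tested, with TMM factors) and 12884 genes were tested by the quasi-likelihood method of edgeR. Bop1 had 64 reads in all libraries, 14, 10 and 15 in wild-type and 10, 3, 4 and 8 in mutant libraries, too few for the filter of a mean of 10 reads. After scaling, the mutant libraries were at 1.01 to 3.18 CPM and the wild-type libraries at 3.22 to 4.18 CPM. Wild-type replicate 2 and mutant replicate 1 each had 10 reads, so the lack of overlap between them rests on the scaling.

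Wdr12 was lower in these reads as well, of which 1454 of 2075 lay in elements that touch an exon. It was at 96.3, 107 and 96.7 CPM in wild-type and at 77.0, 79.5, 78.3 and 88.5 CPM in mutant libraries, with groups that did not overlap in all elements or in those outside exons (log2 fold change -0.31, edgeR unadjusted p = 0.00458, adjusted p = 0.207). Npm1 was at 241, 219 and 217 CPM in wild-type and at 189, 202, 204 and 200 CPM in mutant libraries, again without overlap in all elements or in those outside exons (log2 fold change -0.18, edgeR unadjusted p = 0.0338, adjusted p = 0.363). The repeat reads of Npm1, unlike its FPKM, hold no read with several places. Polr1b was at 101, 96.8 and 85.3 CPM in wild-type and at 73.2, 72.4, 88.6 and 63.3 CPM in mutant libraries, where mutant replicate 3 was above the library labelled wild-type replicate 3 (log2 fold change -0.35, edgeR unadjusted p = 0.00967, adjusted p = 0.264). In elements of Polr1b outside exons the groups overlapped broadly, with means of 21.4 and 19.2 CPM, and 1470 of its 1941 repeat reads lay in elements that touch an exon.

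Ncl had a log2 fold change of the other sign, with groups that overlapped. It was at 247, 246 and 255 CPM in wild-type and at 251, 267, 284 and 263 CPM in mutant libraries (log2 fold change 0.09, edgeR adjusted p = 0.658), and 4901 of its 5977 repeat reads lay in elements that touch an exon. The log2 fold changes of the remaining factors were -0.17 for Nop56, -0.16 for Fbl, -0.08 for Pes1, -0.04 for Nop58 and -0.00 for Dkc1, with edgeR adjusted p from 0.699 to 0.997. Of the 9 factors tested, 3 were lower at an unadjusted p under 0.05 in edgeR, where 5.93% of all genes were, 0 passed the adjusted threshold, where 0.00776% did, and 2 had groups that did not overlap, where 5.29% did. Of 134 other ribosome biogenesis genes tested in this way, 111 (82.8%) had a log2 fold change below 0, beside 50.2% of all genes, with a median of -0.11. In edgeR 23 of them were lower and 1 higher at an unadjusted p under 0.05, and 0 passed the adjusted threshold. Of all 12884 genes, 764 were lower and 841 higher at that unadjusted level. For the 9 factors, 0 also passed with DESeq2, where 0.38% of all genes did, and in edgeR without the library labelled wild-type replicate 3, where 1.14% did. The plot of repeat reads by library shows the 10 factors.

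**Figure D4:**
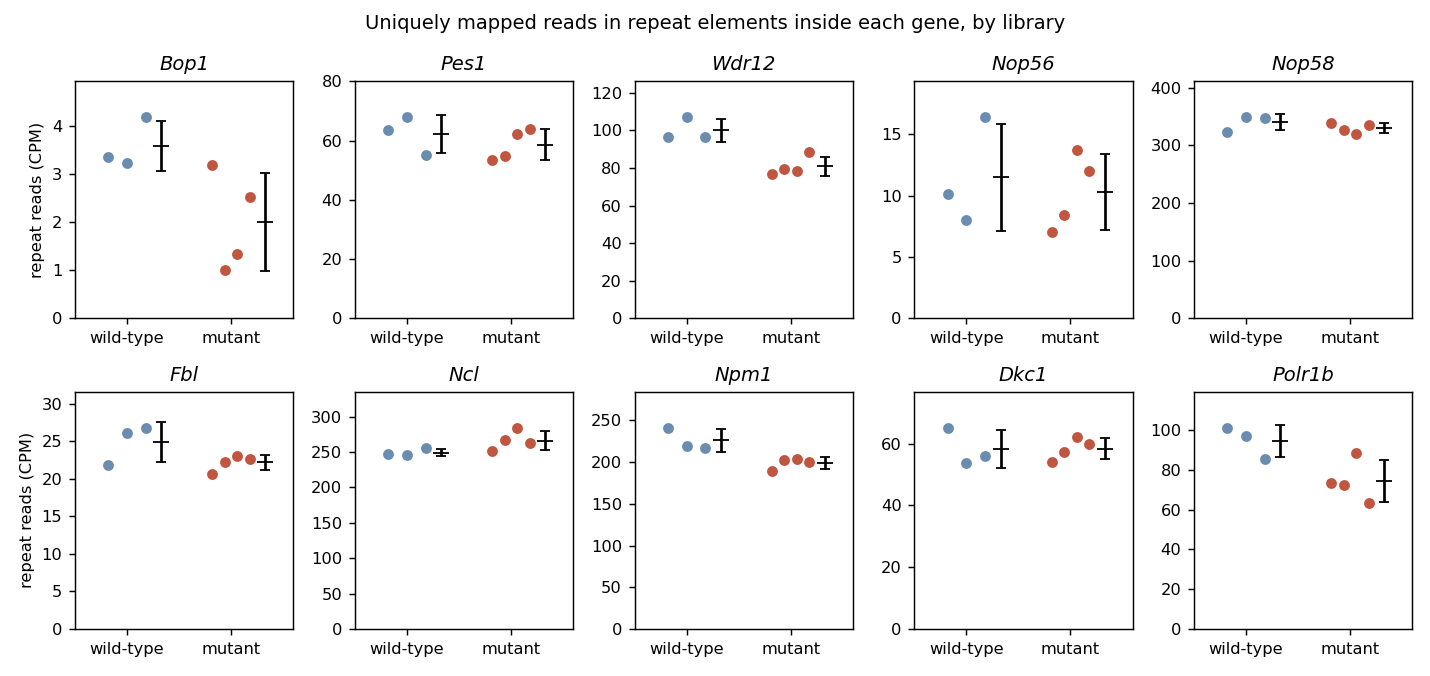
Reads in repeat elements inside each of the 10 factors, as TMM-scaled CPM (vertical axis, from 0), with wild-type replicates 1 to 3 in blue, mutant replicates 1 to 4 in red and the mean and SD of each group as bars. Wdr12 and Npm1 have mutant points below all wild-type points, as do the few reads of Bop1, but there only through the scaling. Ncl has a mutant mean of 266 CPM above the wild-type mean of 249 CPM.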

How the data were processed

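RNA-Seq data of whole E14.5 testes from 3 wild-type and 4 Glis3 mutant embryos were used, grouped by the sample labels. The authors aligned reads to mm10 with TopHat2 2.0.12 (unstranded) and deposited FPKM per RefSeq gene from Cuffnorm. They also deposited counts of uniquely mapped reads per repeat element from HTSeq, which are not normalized. One separator is missing from the header of the FPKM table, so its columns were read by position.

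The 0.5 FPKM filter on the mean left 13988 genes, whose log2(FPKM + 0.5) entered limma 3.58.1 (R 4.3.3, eBayes with trend, two-sided, Benjamini-Hochberg over these genes, threshold 0.05). Fold changes on this scale understate changes of low genes. The study's tool, Cuffdiff (2.1.1 per the submitters' notes), needs aligned reads and was not run. Counts were summed over elements inside each gene and tested with edgeR 4.0.16 (quasi-likelihood, TMM, mean of at least 10 reads) and, as an alternative, DESeq2 1.42.0. Total repeat reads per library were 3454317 to 4670830. Both steps were run on simulated data, with changes larger than most of those of the members. Those runs do not tell whether changes as small as most of the members' would be found. Exons came from GENCODE M21, and tables and motifs were made in Python 3.11.15.

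The members, lists, tests and alternatives were chosen with earlier results of these data known. Genes named are the members, Rn45s, Myc, Mycn, polymerase I and snoRNP core genes, the 3 lowest and 3 highest fold changes without overlap in each subunit list, the 5 genes most correlated with Bop1, snoRNAs inside members and tissue markers. Glis3, Max, Mycl, Mlx, Mnt, Mxd4, Dppa5a, Twistnb, Znrd1, Cd3eap and genes that overlap members were added after their values were seen. Endothelial, interstitial, blood and mesonephric marker lists had medians of 0.00, 0.04, -0.05 and -0.38, and a list of 7 regulators -0.00. The mesonephric value rests on the 2 of 6 genes that passed the filter.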

Additional observations from a re-analysis of the deposited data

Results flagged for a closer look

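Among the 48 groups of 4 values checked, 1 had a sample far from the rest. Pes1 was at 25.8 FPKM in mutant replicate 2 and at 28.3 to 28.5 FPKM in the other 3 mutant libraries. Its gap to the nearest library, as a share of the range of the group, was above the 95% critical value of Dixon's test for 4 samples. Chance alone gives such a value in about 1 of 20 groups.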

How the results depend on the processing

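Of the values of the 9 members other than Bop1, 230 kept their direction and side of the threshold under the alternatives, 3 passed it (Polr1b, Wdr12 and Fbl without the library labelled wild-type replicate 3), 0 lost it and 10 changed sign. Those that changed sign had small values. The log2 fold change of Nop58 in FPKM was -0.008, with 0.004 after centring on the median, 0.007 with array weights and -0.077 to 0.047 with 1 library left out. In repeat reads, Nop56 went from -0.173 to a range of -0.360 to 0.164, and Dkc1 from -0.002 to a range of -0.057 to 0.088, with 1 library left out.

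The number of genes past the threshold in limma was 1 of all genes (a gene outside the lists), 4 with no filter, 3 with quantile normalization and 1 to 720 with 1 library left out. For the 9 members it was 0, and 0 to 3 with 1 library left out, and for the 140 other biogenesis genes 0, and 0 to 37. The highest of each came without the library labelled wild-type replicate 3. In repeat reads edgeR called 1 gene, 53 with no filter and 0 to 147 with 1 library left out, and DESeq2 called 49. With the replicate number as a block, limma called 0 genes and edgeR 0. Deviations of samples with the same number had correlations of 0.198, -0.177 and 0.229, so the numbers were not taken to pair the embryos. The number of other biogenesis genes below 0 stayed between 123 and 128 with 1 library left out, beside 126. Fragment numbers behind FPKM are unknown, and 64 repeat reads limit Bop1. The causes were not tested.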
